A study of Mus musculus with 120 samples.

Results

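The RGS genes Rgs2, Rgs4, Rgs6, Rgs7, Rgs8, Rgs10, Rgs12, Rgs16 and Rgs17 were followed in projection neurons from 22 thalamic nuclei of the mouse. They were chosen by gene symbol. Of these 9 genes, 8 were found among the 16538 genes of the count table and all 8 passed the filter on low counts. Rgs12 is not analysed here. The measurement was bulk RNA-seq of small pools of neurons sorted by hand under fluorescence, each pool taken from a microdissected nucleus after a tracer had been placed in a region that the nucleus projects to. A cell was therefore sampled only if it was labelled from that region, and a nucleus stands here for its cells with that projection.

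There were 120 libraries in 24 groups of nucleus, tracer and target. In 92 libraries the tracer was DiI, a lipophilic dye, and in 28 it was an adeno-associated virus (AAV) that enters axon endings and is carried back to the cell body. Tracer in the striatum, the input structure of the basal ganglia, labelled 7 nuclei in 30 libraries. These were PVT (paraventricular), IMD (intermediodorsal), SPA (subparafascicular area), PF (parafascicular) and CL (central lateral), labelled with rAAV2retro-GFP, PCN (paracentral), labelled with rAAV2retro-tdTom, and CM (central medial), labelled with rAAV2retro-tdTom in 4 libraries and with DiI in 3. The other 15 nuclei, in 90 libraries, were labelled from cortex with DiI. From Cg_Ctx these were AM (anteromedial), IAD (interanterodorsal) and RE (reuniens), and AM also had 1 library labelled with rAAV2retro-tdTom. From Rs_Ctx came AD (anterodorsal), AV (anteroventral) and LD (laterodorsal), and from M1_Ctx VA (ventral anterior), VL (ventrolateral) and VM (ventromedial). PO (posterior) and VB (ventrobasal) were labelled from Barrel_Ctx, LGd (dorsal lateral geniculate) with LP (lateral posterior) from V1_Ctx, VPMpc from Insula_Ctx and MD (mediodorsal) from lc_Orb_Ctx. In 20 libraries of VA, VL and VM a second label marked axons (virus_SNr_DCN), and in 14 of LP and LGd it was CTB_eyes. All libraries came from wildtype mice except 1 of VA, whose genotype was 33.7-Gad2. By the recorded sex, 72 libraries were male, 47 female and 1 mixed. The recorded ages, given without a unit, were 98 to 157 (median 125) for striatum-labelled libraries and 55 to 447 (median 93) for cortex-labelled ones.

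RGS proteins (regulators of G protein signalling) bind the active, GTP-loaded alpha subunit of a heterotrimeric G protein and speed up its GTP hydrolysis, which ends the signal of a G protein coupled receptor. In the R4 family (Rgs2, Rgs4, Rgs8 and Rgs16) the protein is little more than the RGS domain with a short amino-terminal stretch. Rgs2 prefers alpha subunits of the Gq class, while Rgs4, Rgs8 and Rgs16 act on Gi, Go and Gq. The R7 proteins Rgs6 and Rgs7 are larger, need the atypical beta subunit Gnb5 for their stability, and act on Gi and Go. Rgs10 and Rgs12 belong to the R12 family, and Rgs10 is best known from microglia and other immune cells. Rgs17 belongs to the RZ family, which acts on Gz and other members of the Gi class. In thalamic relay neurons, muscarinic, metabotropic glutamate and GABA-B receptors act through these G proteins on potassium channels and phospholipase C, and so shift the cells between tonic and burst firing.

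In the mm10 annotation (GENCODE M21), 5 of the 8 measured genes lie on chromosome 1. Rgs8 (chr1:153653025-153700323, plus strand) is followed by Rgs16 (chr1:153740349-153745468, plus strand) after a gap of 40025 bases. Rgs2 (chr1:143999338-144004161), Rgs4 (chr1:169741477-169747642) and Rgs7 (chr1:175059087-175492500) are on the minus strand of that chromosome. Rgs10 lies at chr7:128373621-128418758 and Rgs17 at chr10:5825663-5922400, both on the minus strand, and Rgs6 at chr12:82588292-83162056 on the plus strand. Gene models of other genes overlap Rgs6 (7 models) and Rgs7, Rgs8, Rgs10 and Rgs16 (1 each). These overlaps were counted over whole gene spans with introns, and overlap of exons was not examined. Because the libraries carry no strand information, reads cannot be told apart where exons of such a model and of the RGS gene coincide.

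The promoters of Rgs4, Rgs16 and Rgs10 are shown because results below turn on these genes. Each runs from 250 to 5 bases before the transcription start in RefSeq (GRCm38.p6), read along the gene, in lower case with the searched motifs in capitals. All 8 measured genes had an entry there. The window is chr1:169747647-169747892 (minus strand) for Rgs4, chr1:153740103-153740348 (plus strand) for Rgs16 and chr7:128418177-128418422 (minus strand) for Rgs10.
Rgs4: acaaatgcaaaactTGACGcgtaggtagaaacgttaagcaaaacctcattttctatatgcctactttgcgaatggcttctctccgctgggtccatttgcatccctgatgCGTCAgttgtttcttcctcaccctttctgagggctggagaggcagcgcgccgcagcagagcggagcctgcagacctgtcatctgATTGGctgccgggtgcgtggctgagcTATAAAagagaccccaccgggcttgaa
Rgs16: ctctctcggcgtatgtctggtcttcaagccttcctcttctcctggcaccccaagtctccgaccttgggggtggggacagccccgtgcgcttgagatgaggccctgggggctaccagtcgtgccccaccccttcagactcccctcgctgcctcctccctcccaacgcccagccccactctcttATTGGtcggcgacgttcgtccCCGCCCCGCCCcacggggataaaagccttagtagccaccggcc
Rgs10: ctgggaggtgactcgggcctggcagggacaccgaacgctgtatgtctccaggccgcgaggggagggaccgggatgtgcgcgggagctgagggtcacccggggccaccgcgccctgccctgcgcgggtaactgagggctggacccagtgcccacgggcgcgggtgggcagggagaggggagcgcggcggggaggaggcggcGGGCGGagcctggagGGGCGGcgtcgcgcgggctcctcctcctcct

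Short letter strings of known motifs were searched on both strands of the 250 bases before each start. Beside each string stands the share of 32851 such windows that hold it, taken over the genome with 1 chromosome left out. The Rgs4 window held a TATA box (TATAAA, 12.4% of all windows) at positions -31 to -26, counted from the start, and it was the only measured RGS gene with one. It also held the string TGACG (17.8% of windows), the core of the cyclic AMP response element, at -236 and -141, and a CCAAT box (CCAAT, 33.8%) at -57. The full cyclic AMP response element (TGACGTCA, 1.55%), which contains TGACG, was in none of the 8 genes' windows. The Rgs16 window held a pair of GC boxes (GGGCGG, 32.7%) that share 1 base, at -47 to -42 and -42 to -37, and a CCAAT box at -68. The Rgs10 window held GC boxes at -50 and -35 and had a GC content of 76.4%, against 66.4% for Rgs16, 53.6% for Rgs4 and a median of 52.4% over all windows. The remaining string, CACGTG (6.02%), occurred in the Rgs7 window at -29.

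Total counts per library were 8159497 to 26444831 (median 15571299.5), from 14 to 200 cells (median 60.5), and amplification ran on 14 dates. Of the 24 groups, 15 were amplified on 1 date, which some of them shared with other groups. The libraries came from 85 mice. Of these, 44 were the source of 2 or more libraries, and 13 libraries held pooled material of several mice. The glutamatergic thalamic markers Slc17a6 and Tcf7l2 and the neuronal markers Snap25 and Rbfox3 had reads in all 120 libraries, with at least 517.8, 813, 4200 and 36.5 CPM (counts scaled to a common library size). The 8 oligodendrocyte markers summed to 11.3 to 60 CPM in striatum-labelled and 0.992 to 4155 CPM in cortex-labelled libraries. The astrocyte, endothelial and pericyte lists had no measured member and are not analysed here. The 2 measured inhibitory neuron markers summed to 0 to 8.71 CPM in striatum-labelled and 0 to 347 CPM in cortex-labelled libraries, and the measured habenula marker Gpr151 to 0 to 60.2 and 0 to 42.3 CPM.

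Levels are CPM, TMM-scaled, as mean ± SD over libraries unless stated otherwise. Per kilobase of exon, which allows levels of different genes to be set side by side, the mean over the 22 nuclei was highest for Rgs4 (145 CPM per kb), then Rgs16 (92.3), Rgs17 (69.0), Rgs7 (54.7), Rgs8 (28.6), Rgs2 (20.5), Rgs10 (4.51) and Rgs6 (3.27). In the F test over the 22 nuclei (edgeR quasi-likelihood, Benjamini-Hochberg adjusted p under 0.05) all 8 genes were called, among 55.1% of the 16527 genes tested. Their places in that test differed widely. Rgs4 ranked 4 of 16527 by F (F = 50.6), Rgs8 216, Rgs10 348, Rgs6 372, Rgs16 439, Rgs7 621, Rgs17 638 and Rgs2 6602. The groups accounted for 92.9% of the variance of log2 CPM between libraries for Rgs4 and 85.1% for Rgs10, against 37.5% for Rgs2 and a median of 28.4% over all genes. Because the samples are pools of cells, fewer expressing cells and less RNA per cell cannot be told apart in any of these levels.

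Among the R4 genes, Rgs4 spanned a 19.1-fold range of nucleus means, from 59.4 ± 35.2 CPM in CM (SD, n = 4, AAV) to 1132 ± 265 CPM in VM (SD, n = 6). It was highest in the ventral motor nuclei and VB (VM, VB 1007, VL 954.5), followed by LD (867), LGd (861) and VA (854.5). Next came PO (666), RE (663), VPMpc (629.6) and LP (566), and then IAD (314), MD (293) and AM (257). All 7 striatum-labelled nuclei, with AD (111) and AV (91.9), lay at or under 124.5 CPM. In this order of 22 nuclei, 3 of the 21 neighbouring pairs differed by more than the larger SD of the pair, namely VA and PO, LP and IAD, and AM and SPA. The libraries did not overlap between LP and IAD or between AM and SPA.

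Rgs8 was highest in VB, but 1 VB library set that mean. The 4 VB libraries had 348.5, 1762, 294.5 and 240.3 CPM, and the same libraries had summed oligodendrocyte markers of 75.4, 178, 766 and 2078 CPM. The other nuclei near the top were LD (554 ± 122 CPM, SD, n = 5), VL (474 ± 151, n = 6) and VPMpc (469 ± 192, n = 6). It was low in all striatum-labelled nuclei (106.7 to 134.5 CPM), in AM (114) and in AD (118). No neighbouring pair in the order of nuclei differed by more than the larger SD.

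Rgs16 ranged from 24.4 ± 8.29 CPM in AD (SD, n = 4) to 321 ± 86.9 CPM in VPMpc (SD, n = 6). AD stood clear of the next nucleus: its 4 libraries had 21.05, 31.2, 31.2 and 14.3 CPM, and the 4 libraries of SPA, next in order, 87.4, 82.7, 66.0 and 109 CPM. The remaining 20 nuclei had means of 127 to 321 CPM, and neighbours in their order did not differ beyond their spread. Rgs2 had the smallest fold range of nucleus means (3.31-fold), from 36.6 ± 26.6 CPM in AD (SD, n = 4) to 121 ± 32.02 CPM in LD (SD, n = 5). None of its 21 neighbouring pairs differed beyond their spread. Its SD over the nucleus means was 35.1% of their mean, above the 31.1% of Rgs7, which was the lowest.

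Of the R7 genes, Rgs6 had the most uneven pattern. In AV the 8 libraries had 187 to 335 CPM (median 250), in AD 128, 159, 128 and 270.5, in IAD 51.7, 66.5 and 98.8, in AM by DiI 56.9, 68.2, 34.95 and 97.4, and in AM by AAV 85.6 CPM. These 20 libraries of the anterior nuclei AV, AD, AM and IAD ranged from 34.95 to 335 CPM (median 144), and the 100 libraries of the other 18 nuclei from 0 to 63.5 CPM (median 3.77). The sets overlapped: 7 of the 100 libraries exceeded the lowest of the 20. The nuclei were grouped this way after their values were seen, and no test was run. In PVT, where Rgs6 was lowest, the 3 libraries had 0.0832, 0 and 0 CPM.

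Rgs7, the other R7 gene, was more even. All nuclei but MD and AD lay between 234 ± 35.8 CPM (CM, SD, n = 4) and 490 ± 75.0 CPM (VPMpc, SD, n = 6). MD was higher at 594 ± 332 CPM (SD, n = 6), with libraries from 315 to 1169 CPM (median 470), and AD was lowest, with 121, 130, 65.9 and 56.9 CPM. AD did not overlap CM, the next nucleus.

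Rgs10, the R12 gene, was near 0 in cortex-labelled nuclei. All libraries of LGd, LP, MD, VB and VPMpc had no Rgs10 read, and the highest cortex-labelled mean was 2.24 ± 2.48 CPM in VL (SD, n = 6). In the striatum-labelled nuclei it was highest in PVT (48.5, 57.8 and 37.6 CPM) and IMD (27.3, 66.3, 35 and 45.7 CPM). PCN had 22.9, 9.52, 9.82 and 59.5 CPM, and PF 14.8, 15.2, 19.9 and 10.1 CPM. SPA had 10.98, 8.17, 10.6 and 10.1 CPM, CM by AAV 15.99, 12.4, 9.64 and 9.51 CPM, and CL 14.99, 3.36, 1.5 and 12.7 CPM. PVT and IMD thus had the highest means, while within PCN and CL the libraries differed several-fold.

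Rgs17, the RZ gene, was high throughout, from 205 ± 76.8 CPM in VB (SD, n = 4) to 1370 ± 348 CPM in VPMpc (SD, n = 6). After VPMpc came MD (1001 ± 563, n = 6), SPA (989 ± 181, n = 4) and RE (796 ± 144, n = 8). VL (267), LGd (287.5) and LD (294.5) were near the low end. Of 21 neighbouring pairs, SPA and RE alone differed by more than the larger SD, and their libraries overlapped.

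**Figure D1:**
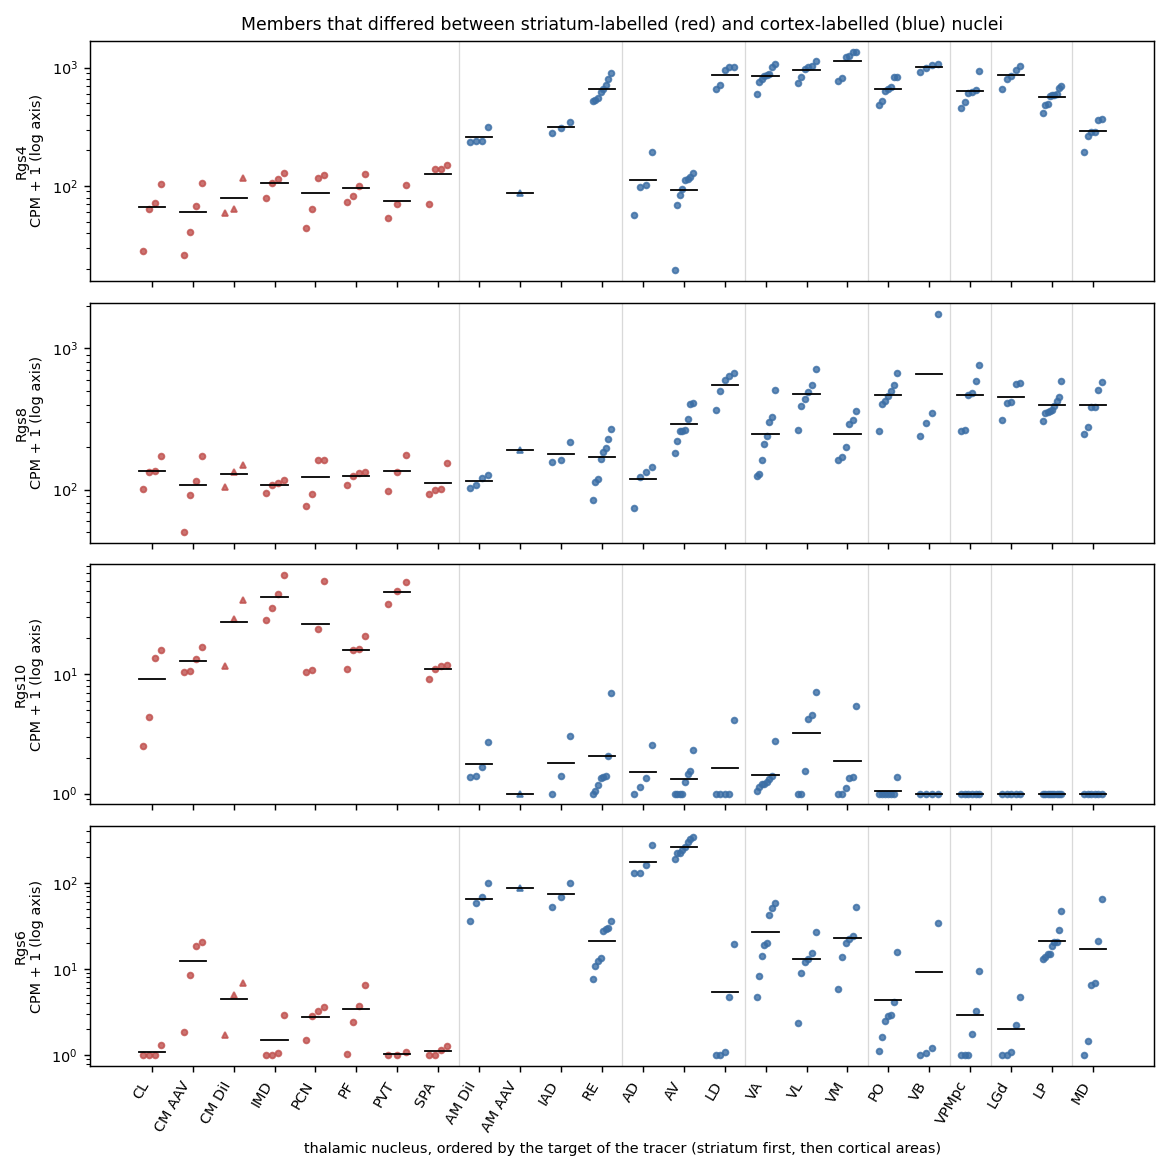
Rgs4, Rgs8, Rgs10 and Rgs6 in each of the 120 libraries, as CPM + 1 on a log axis, by nucleus and tracer. Red points are striatum-labelled and blue points cortex-labelled, triangles are the CM libraries labelled with DiI and the AM library labelled with AAV, and black lines are group means. Rgs10 is above 1 CPM in all red libraries and at 0 in 52 of the 90 blue ones, while Rgs4 is as low in AD and AV as in the red nuclei.

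The striatum-labelled and cortex-labelled nuclei were compared with the counts of each nucleus summed (7 against 15 sums, edgeR quasi-likelihood test). Of the 8 RGS genes, 4 were called, 1 higher and 3 lower in striatum-labelled nuclei, where 18.4% of the 15440 genes tested were called, 8.58% higher and 9.8% lower. The median log2 difference (striatum minus cortex) was -0.31 over the 8 genes and -0.08 over all genes tested. The sums held the AAV libraries of the striatum-labelled nuclei and the DiI libraries of the cortex-labelled ones, so tracer and target cannot be told apart in the test. The ranges over libraries below also hold the 3 CM libraries labelled with DiI and the AM library labelled with AAV.

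Rgs10 was the gene that was higher in striatum-labelled nuclei. Its 30 libraries there had 1.5 to 66.3 CPM (median 14.9), and the 90 cortex-labelled libraries 0 to 6.13 CPM (median 0), with 52 of the 90 at 0. Of the 30 striatum-labelled libraries, 28 lay above every cortex-labelled one, the exceptions being 2 CL libraries. The ranges thus overlapped, with 10 of the 90 cortex-labelled libraries above the lowest striatum-labelled one. Over all libraries, ranges without any overlap were found for 0.0182% of all genes, and Rgs10 was not among these. No share was computed for a partial overlap like that of Rgs10. Over nucleus sums the level was 24.03 ± 17.1 CPM (SD, n = 7) against 0.560 ± 0.645 CPM (SD, n = 15), and the nuclei of the classes did not overlap, as for 1.28% of all genes. The log2 difference was 5.41 (SE 0.89, edgeR adjusted p = 0.000278). The 3 CM libraries labelled with DiI had 10.7, 28.2 and 41.0 CPM, above all cortex-labelled libraries. The AM library labelled with AAV had no Rgs10 read, which allows up to 0.267 CPM (3 counts, counting error only).

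Rgs10 is also known from microglia, and the microglial markers C1qc and Csf1r are given beside it. The complement gene C1qc had no read in any of the 30 striatum-labelled libraries and 0 to 41.3 CPM in the cortex-labelled ones, of which 82 of 90 were at 0. The growth factor receptor gene Csf1r had 0 to 4.21 CPM (median 0) in striatum-labelled and 0 to 47.9 CPM (median 0) in cortex-labelled libraries. The part of microglial RNA in the Rgs10 difference was not tested.

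Rgs4 was lower in striatum-labelled nuclei. Its libraries had 25.1 to 151 CPM (median 79.6) there and 18.6 to 1365 CPM (median 641) in cortex-labelled nuclei. The classes overlapped through 12 of the 90 cortex-labelled libraries that lay under the highest striatum-labelled one: all 8 of AV, 3 of the 4 of AD and the AM library labelled with AAV. Over nucleus sums the level was 90.2 ± 23.4 CPM (SD, n = 7) against 621 ± 344 CPM (SD, n = 15), a log2 difference of -2.78 (SE 0.42, edgeR adjusted p = 0.00012). The AM library labelled with AAV had 86.7 CPM, against 238, 315, 235 and 239 CPM in the AM libraries labelled with DiI. The CM libraries labelled with DiI had 116, 57.6 and 62.4 CPM, within the range of the AAV-labelled nuclei.

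Rgs8 was also lower in striatum-labelled nuclei. Its libraries had 49.5 to 175 CPM (median 115) there and 73.3 to 1762 CPM (median 310) in cortex-labelled nuclei, and 19 of the 90 cortex-labelled libraries lay under the highest striatum-labelled one. Over nucleus sums the level was 124 ± 11.9 CPM (SD, n = 7) against 345 ± 164 CPM (SD, n = 15), a log2 difference of -1.48 (SE 0.29, edgeR adjusted p = 0.00112). Here the AM library labelled with AAV, at 189 CPM, lay above the 102 to 125 CPM of AM by DiI.

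Rgs6 was lower as well. It had 0 to 19.7 CPM (median 0.413) in striatum-labelled libraries, with 9 of 30 at 0, and 0 to 335 CPM (median 14.3) in cortex-labelled ones, with 9 of 90 at 0. The classes overlapped widely, since 54 of the 90 cortex-labelled libraries lay under the highest striatum-labelled one. Over nucleus sums the level was 2.42 ± 4.27 CPM (SD, n = 7) against 47.2 ± 73.4 CPM (SD, n = 15), a log2 difference of -4.29 (SE 1.21, edgeR adjusted p = 0.0154), and -5.79 without CM, the striatum-labelled nucleus with the most Rgs6. The other 4 genes did not pass: Rgs2 had a log2 difference of 0.55 (edgeR adjusted p = 0.066), Rgs16 -0.40 (0.333), Rgs7 -0.21 (0.472) and Rgs17 0.15 (0.730).

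The class difference was also measured within the 2 amplification dates that held both classes, with the date as a block. It used 3 striatum-labelled sums (PVT, IMD and CM by DiI) and 5 cortex-labelled sums (of VA, VL and VM). Sums were made per nucleus and date, so VA and VL entered on both dates and their sums are not independent units. Neither AD nor AV, the cortex-labelled nuclei with low Rgs4, was on these dates. Within these dates Rgs10 had 10.7 to 66.3 CPM in 10 striatum-labelled libraries and 0 to 6.13 CPM in 16 cortex-labelled ones. Rgs4 had 52.3 to 127 CPM against 740.5 to 1365 CPM, so for both genes these libraries did not overlap. The share of all genes without overlap in these libraries was not computed. The cortex-labelled side was made up of motor nuclei high in Rgs4. Rgs6 was no longer called (log2 difference -3.95, edgeR adjusted p = 0.0784), while Rgs16 was called lower (-1.15, adjusted p = 0.0024). In female libraries alone, with 7 nuclei in each class, Rgs8 (-0.74, edgeR adjusted p = 0.0825) and Rgs6 (-3.85, adjusted p = 0.109) were not called. The cortex-labelled nuclei were then AM, IAD, RE, VA, VL, VM and VPMpc. AV and AD, highest in Rgs6, and VB and LD, highest in Rgs8, had no female library. Leaving out LD, RE or SPA brought Rgs2 to an adjusted p of 0.0237, 0.031 and 0.0373 by edgeR. Of the 8 oligodendrocyte markers, 5 were lower in striatum-labelled nuclei and none higher, with none at 0 in all libraries of either class, and the habenula marker Gpr151 was higher (16.8 ± 7.21 against 3.08 ± 2.99 CPM, SD, n = 7 and 15, log2 difference 2.45, edgeR adjusted p = 0.00342). The part of these markers in the RGS differences was not tested.

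**Figure D2:**
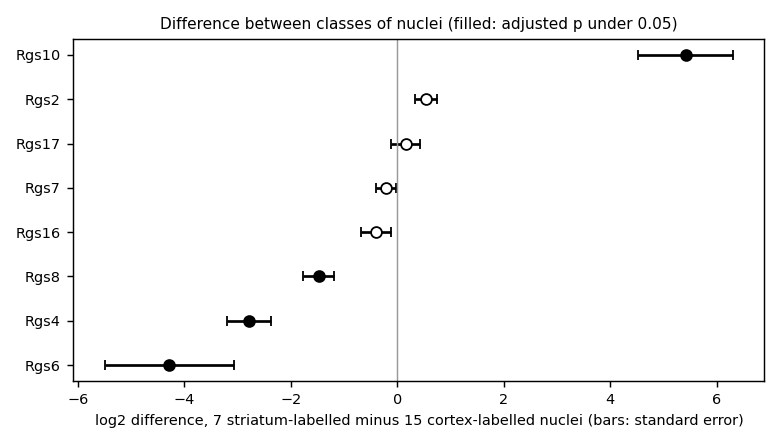
Log2 difference of the 8 RGS genes between 7 striatum-labelled and 15 cortex-labelled nuclei (striatum minus cortex, nucleus sums). Bars are standard errors and filled points have an adjusted p under 0.05: Rgs10 lies at 5.41, and Rgs8, Rgs4 and Rgs6 lie at -1.48, -2.78 and -4.29.

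Nuclei labelled from the same target were then compared pairwise, as contrasts of the fit over all libraries. The share of all genes without overlap was computed neither for these comparisons nor for neighbours in the orders of nuclei above. In the visual pair LP and LGd (V1_Ctx), LGd relays retinal input and LP is a higher-order nucleus driven largely by cortex and superior colliculus. Of the 8 genes 2 were called, both higher in LP, where 3.62% of genes were called (2.23% higher and 1.39% lower). Rgs6 had 12.03 to 45.6 CPM in the 9 LP libraries (median 17.3) and 0, 0.0848, 0, 3.69 and 1.28 CPM in the 5 LGd libraries. The groups did not overlap, and the log2 difference was 4.35 (SE 1.22, edgeR adjusted p = 0.0205). The call rested on few LGd libraries: without replicate 1, 2, 3 or 5 of LGd the adjusted p was 0.0764, 0.0747, 0.0744 and 0.0511. Without replicate 4 the log2 difference rose to 5.75. Rgs17 had 395 to 945 CPM in LP (median 599.5) and 360.5, 279, 229, 404 and 165 CPM in LGd. The groups overlapped by 1 LGd library, and the log2 difference was 1.14 (SE 0.29, edgeR adjusted p = 0.00782), with an adjusted p of 0.0582 without LGd replicate 5. In a fit of LP and LGd alone Rgs4 was also called, lower in LP (-0.61, edgeR adjusted p = 0.0115, against -0.60 and 0.15 in the fit of all groups). That fit called 660 of 12856 genes tested.

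In the somatosensory pair, PO and VB (Barrel_Ctx), VB relays touch and PO is the higher-order nucleus. Again 2 genes were called, both higher in PO, where 2.65% of genes were called (1.6% higher and 1.05% lower). Rgs17 had 351 to 841 CPM in the 7 PO libraries (median 479.8) and 218, 308, 134.5 and 159.7 CPM in VB. The groups did not overlap, and the log2 difference was 1.42 (SE 0.33, edgeR adjusted p = 0.00329). Rgs7 had 349.9 to 692 CPM in PO (median 475) and 259, 263, 297 and 278 CPM in VB. These groups did not overlap either, with a log2 difference of 0.77 (SE 0.22, edgeR adjusted p = 0.0379). Leaving out any VB library ended this call (adjusted p = 0.0712 to 0.111), as did a term for the amplification date (log2 difference 0.54, adjusted p = 0.427), a fit of PO and VB alone (0.0798) and the replicate number as a block (0.0513). Rgs4 had 479 to 837 CPM in PO and 926 to 1070 CPM in VB, without overlap, but its log2 difference of -0.60 had an adjusted p of 0.25 by edgeR. The 8 oligodendrocyte markers summed to 3.81 to 248 CPM in PO and 75.4 to 2078 CPM in VB, and their part in these differences was not tested.

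In the motor group (M1_Ctx), VA was set against VL, and 2 genes were called, 1 in each direction, where 2.21% of genes were (1.37% higher and 0.841% lower). Rgs17 had 249 to 1274 CPM in the 8 VA libraries (median 398.5) and 136 to 466.1 CPM in the 6 VL libraries (median 230.1). The groups overlapped, and the log2 difference was 1.03 (SE 0.27, edgeR adjusted p = 0.0204). Without the VA library that was not wildtype the difference was 0.72 (adjusted p = 0.157). Rgs8 had 123.5 to 503.9 CPM in VA (median 223.5) and 264 to 711.5 CPM in VL (median 465). Here too the groups overlapped, with a log2 difference of -0.93 (SE 0.27, edgeR adjusted p = 0.0392). In a fit of VA and VL alone neither was called (adjusted p = 0.217 for Rgs17 and 0.13 for Rgs8), and with a term for the date Rgs8 had an adjusted p of 0.0766.

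VM against VL and VA against VM share libraries with that comparison. For VM against VL 0 of the 8 genes were called by edgeR (1.69% of all genes were, 1.22% higher and 0.478% lower), 3 had an unadjusted p under 0.05 and DESeq2 called 2. Those were Rgs8 (log2 difference -0.94 by edgeR, adjusted p = 0.0767) and Rgs17 (0.96, adjusted p = 0.0598). For VA against VM edgeR called 0 of the 8 (0.127% of all genes, 0.0484% higher and 0.0787% lower), with 0 at an unadjusted p under 0.05 and 0 by DESeq2. Oligodendrocyte markers summed to 16.8 to 4155 CPM in VA, 11.4 to 588 CPM in VM and 9.59 to 242 CPM in VL, and their part was not tested.

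**Figure D3:**
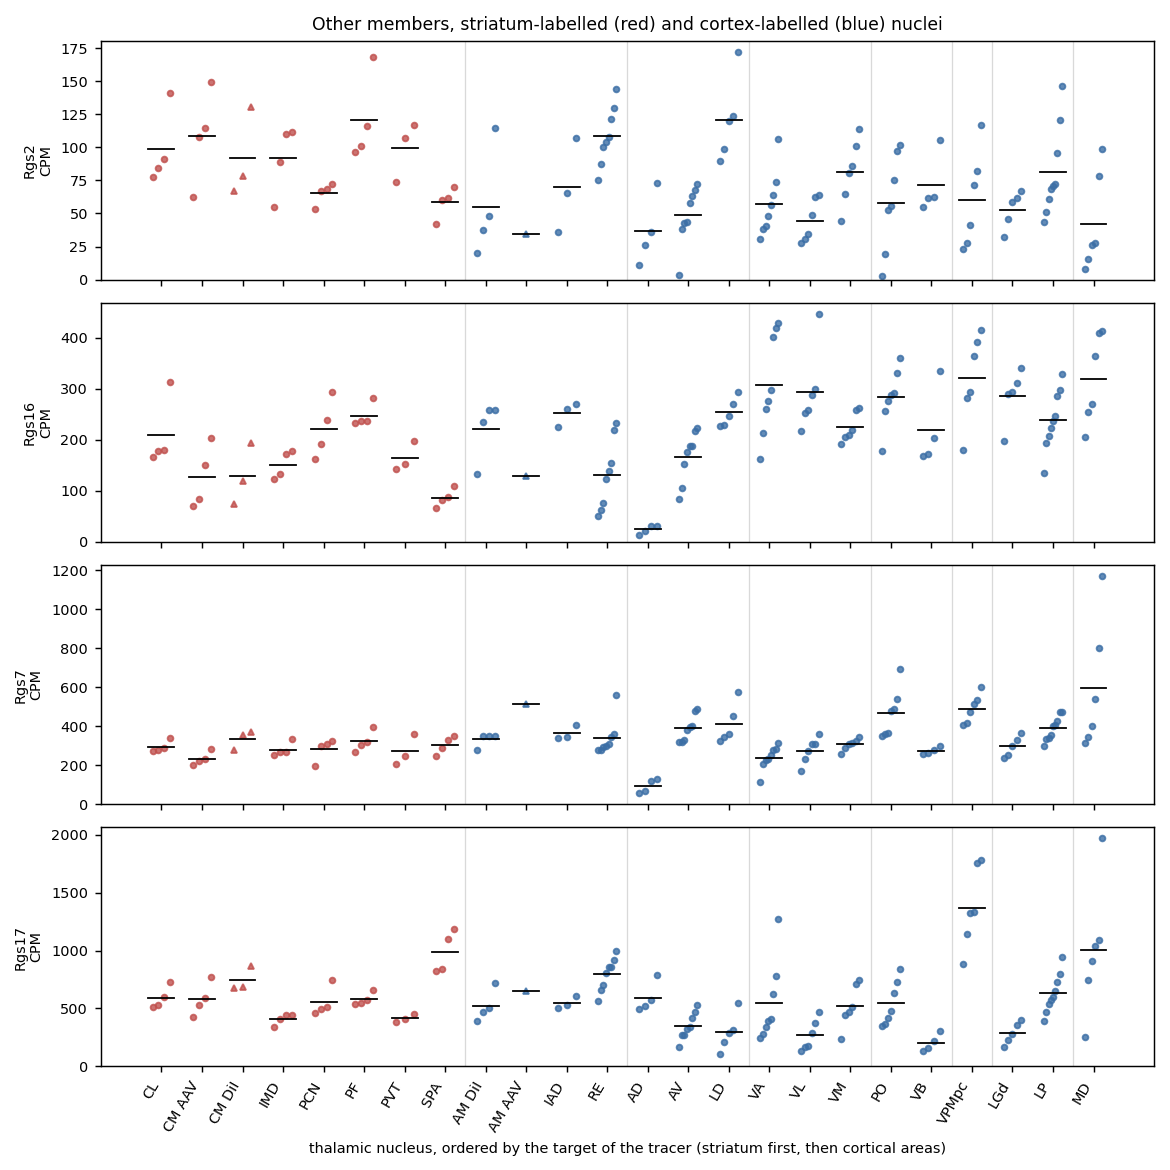
Rgs2, Rgs16, Rgs7 and Rgs17 in each of the 120 libraries, as CPM on linear axes that start at 0, with the same colours, triangles and mean lines as in the plot of Rgs4, Rgs8, Rgs10 and Rgs6. AD is lowest for Rgs16 (24.4 CPM) and Rgs7 (93.4 CPM), and VPMpc is highest for Rgs17 (1370 CPM).

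In the Rs_Ctx group, AD and AV, neighbouring anterior nuclei of the limbic circuit, differed in 3 of the 8 genes, all lower in AD, where 5.69% of genes were called (2.79% higher and 2.9% lower). Rgs16 had 21.05, 31.2, 31.2 and 14.3 CPM in AD and 83.2 to 223 CPM in the 8 AV libraries (median 181.5). The groups did not overlap, and the log2 difference was -2.77 (SE 0.31, edgeR adjusted p = 8.13e-12). Rgs7 had 121, 130, 65.9 and 56.9 CPM in AD and 317.5 to 486 CPM in AV (median 387), again without overlap, with a log2 difference of -2.05 (SE 0.24, edgeR adjusted p = 1.61e-11). Rgs8 had 73.3, 123, 144 and 133 CPM in AD and 179.8 to 409 CPM in AV (median 262). These did not overlap either, and the log2 difference was -1.29 (SE 0.33, edgeR adjusted p = 0.00497), with an adjusted p of 0.0506 without AD replicate 1. Rgs4, low in both nuclei, had a log2 difference of 0.28 (edgeR adjusted p = 0.625). The 4 neuronal markers, mostly Snap25, summed to 23871 to 51833 CPM in AD and 12936 to 31290 CPM in AV, and their part in these differences was not tested.

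LD, a nucleus with visual and limbic connections, was set against the same AV libraries. It differed in 4 genes, 3 higher and 1 lower in LD, where 5.5% of all genes were called (3.58% higher and 1.92% lower). Rgs4 had 1003, 714, 1003, 658.5 and 958 CPM in LD and 18.6 to 128 CPM in AV (median 102). The groups were far apart, with a log2 difference of 3.24 (SE 0.25, edgeR adjusted p = 1.71e-20). Rgs6 went the other way, with 0, 0, 0.0855, 18.5 and 3.80 CPM in LD and 187 to 335 CPM in AV, a log2 difference of -5.85 (SE 1.30, edgeR adjusted p = 0.00132). Without LD replicate 4, the library at 18.5 CPM, it was -8.12. Rgs8 had 498, 668, 639, 368 and 596 CPM in LD, overlapping the 179.8 to 409 CPM of AV, with a log2 difference of 0.94 (SE 0.28, edgeR adjusted p = 0.029). Rgs2 had 98.5, 119.7, 172, 124 and 90.0 CPM in LD and 3.10 to 72.2 CPM in AV (median 50.7). Its log2 difference was 1.31 (SE 0.42, edgeR adjusted p = 0.0429).

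Of these, Rgs4 alone was called with a term for the amplification date. Rgs6 then had a log2 difference of -4.67 (edgeR adjusted p = 0.443), Rgs8 1.13 (0.394) and Rgs2 0.89 (0.834). Leaving out a single LD library ended the call of Rgs2 without replicate 1 (adjusted p = 0.0552), 2 (0.0703), 3 (0.123) or 4 (0.0592), and that of Rgs8 without replicate 2 (0.0841), 3 (0.0714) or 5 (0.0543). Rgs2 was also not called with DESeq2's size factors in edgeR (adjusted p = 0.0512) or in a fit of LD and AV alone (0.183). In the 3 mice that gave both nuclei, with the animal as a block, Rgs4 (3.03, edgeR adjusted p = 5.5e-05) and Rgs6 (-6.21, adjusted p = 0.0016) were called, while Rgs2 (1.18, adjusted p = 0.505) and Rgs8 (adjusted p = 0.0764) were not.

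In the Cg_Ctx group, RE is a midline nucleus that links frontal cortex and hippocampus, and AM and IAD are anterior nuclei. Against AM, 1 gene was called, where 1.84% of all genes were (0.611% higher and 1.23% lower). Rgs4 had 519 to 903 CPM in the 8 RE libraries (median 641) and 238, 315, 235 and 239 CPM in AM by DiI. The groups did not overlap, and the log2 difference was 1.37 (SE 0.28, edgeR adjusted p = 0.000614). Rgs16 pointed the other way, with 50.6 to 232 CPM in RE (median 131) and 132.5, 235, 259 and 259 CPM in AM. It was not called (log2 difference -0.75, edgeR adjusted p = 0.164), but it was with a term for the date (-1.43, adjusted p = 0.000762) and in the 4 mice that gave both nuclei, with the animal as a block (-1.50, adjusted p = 0.0161).

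Against IAD, which was compared with the same RE libraries, edgeR called 0 of the 8 genes (1.33% of all genes were called, 0.266% higher and 1.06% lower), 2 had an unadjusted p under 0.05 and DESeq2 called 1. That gene was Rgs4, with 349, 311 and 282 CPM in IAD, below all RE libraries, a log2 difference of 1.08 and an adjusted p of 0.0512 by edgeR and 0.00461 by DESeq2. In the 3 mice that gave both nuclei, with the animal as a block, Rgs4 (1.27, edgeR adjusted p = 0.000875), Rgs17 (0.63, 0.0469) and Rgs6 (-2.23, 0.0199) were called, among 580 of 13102 genes tested. A fit of RE and IAD alone also called Rgs4 (1.07, edgeR adjusted p = 0.00143) and Rgs6 (-1.86, 0.0171), among 556 of 14118 genes tested.

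Among the striatum-labelled nuclei few differences were found. SPA, which lies ventral to PF, differed from PF in Rgs16, where 0.309% of genes were called (0.0424% higher and 0.266% lower). SPA had 87.4, 82.7, 66.0 and 109 CPM and PF 238, 283, 233 and 236 CPM. The groups did not overlap, and the log2 difference was -1.52 (SE 0.32, edgeR adjusted p = 0.00397), with an adjusted p of 0.0656 without SPA replicate 3. In a fit of these groups alone Rgs2 (-1.04, edgeR adjusted p = 0.00978) and Rgs17 (0.77, adjusted p = 0.00361) were also called. That fit called far more genes, 1084 of 13261 tested. SPA and PF were amplified on different dates, so nucleus and date cannot be told apart here.

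PF and PVT were each set against the same mean of CL, PCN and CM, the rostral intralaminar nuclei. For PF edgeR called 0 of the 8 genes (0.0605% of all genes were called, 0.0484% higher and 0.0121% lower), with 0 at an unadjusted p under 0.05 and 0 by DESeq2. For PVT edgeR called 0 (2.18% of all genes, 1.21% higher and 0.968% lower), 1 had an unadjusted p under 0.05, and DESeq2 called 1, Rgs6, which had 0.0832, 0 and 0 CPM in PVT and 0 to 19.7 CPM in the 12 intralaminar libraries. A fit of these groups alone called Rgs10 higher in PVT (log2 difference 1.81, edgeR adjusted p = 0.0429, against 1.83 and 0.536 in the fit of all groups). That fit called 1031 of 14016 genes tested. Between CM by AAV and CM by DiI edgeR called 0 of the 8 (0.00605% of all genes), with 0 at an unadjusted p under 0.05 and 0 by DESeq2. With 4 and 3 libraries that comparison does not show that the tracer leaves these genes alone: the log2 differences (AAV minus DiI) were -1.17 for Rgs10 (SE 1.59) and -0.51 for Rgs7 (SE 0.26).

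**Figure D4:**
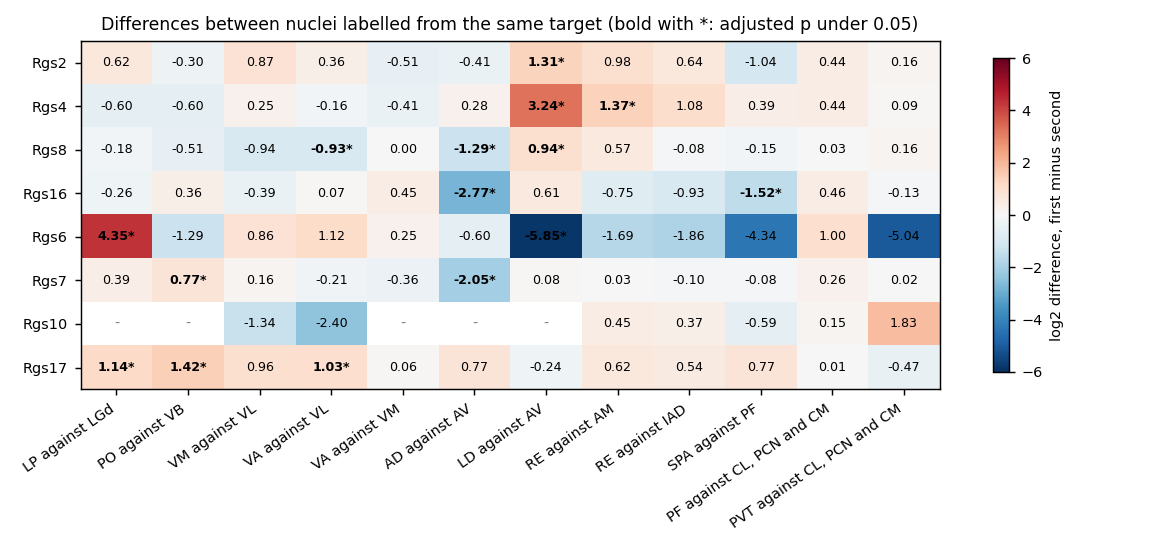
Log2 difference (first minus second) of the 8 RGS genes in 12 comparisons of nuclei labelled from the same target, from the fit over all 120 libraries. Bold values with an asterisk have an adjusted p under 0.05, a dash marks a gene whose mean was under 1 CPM on both sides, and comparisons that share a nucleus share its libraries. LD against AV holds 4 called genes, among them Rgs4 at 3.24 and Rgs6 at -5.85.

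Across the 22 nucleus means of log2 CPM, Rgs4 and Rgs8 had a Pearson r of 0.77, Rgs4 and Rgs10 -0.75, and Rgs8 and Rgs10 -0.79. These are descriptions over 22 nuclei that share animals, dates and, within a class, tracer and target. Without AD the values were 0.76, -0.79 and -0.84. The r of 0.76 between Rgs16 and Rgs7 fell to 0.37 without AD, where both genes were lowest. Rgs8 and Rgs16, which neighbour each other on chromosome 1, had an r of 0.56, and 0.64 without AD.

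For each RGS gene the 3 genes with the highest r over the nucleus means were taken from the 8463 genes that averaged 10 CPM or more. Rgs4 was followed most closely by Unc13c, a vesicle priming gene (r = 0.89, nucleus means of 0.0679 to 139 CPM), Clmp (0.89) and Tspan2 (0.88). Rgs8 was followed by Wapl, a cohesin release factor, the calcineurin subunit gene Ppp3ca and Cacna1a, the P/Q-type calcium channel, each with an r of 0.90. Among those for Rgs16 were the kinase gene Camk2a (0.87) and the ryanodine receptor gene Ryr3 (0.86). For Rgs10 the highest were Igkc, an immunoglobulin constant region gene (0.95), Npy2r, a neuropeptide Y receptor (0.94), and Sema5b, a semaphorin (0.93), each with a nucleus mean of 0 CPM somewhere. Rgs7 was followed by Trps1 (0.88), Adgrl2 (0.88) and Unc13b (0.87), and Rgs17 by Basp1 (0.89), Celf4 (0.88) and Camk2n1 (0.86). For Rgs2 (Gaa, Cacnb3 and Sin3b) and Rgs6 (Stt3b, Ubl7 and Akr1e1) the best r was 0.77 and 0.76.

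Other genes of the pathway were examined in the class comparison from lists of RGS genes, G proteins, channels and receptors. Over all genes tested, 18.4% were called (8.58% higher and 9.8% lower), and the counts of each list stand beside those shares, so that a list with 1 call among 4 or 5 genes lies near them. Of 5 measured RGS genes among 12 further ones, Rgs19 of the RZ family was higher in striatum-labelled nuclei (24.1 ± 8.80 CPM, SD, n = 7, against 15.6 ± 3.30 CPM, SD, n = 15, log2 difference 0.63, edgeR adjusted p = 0.0253). Rgs14, of the same family as Rgs10, was lower (0.110 against 2.28 CPM, log2 difference -4.35, edgeR adjusted p = 0.0193). The median over the 5 was 0.61. Of 4 measured partners of the R7 proteins, Rgs7bp, the membrane anchor of Rgs6 and Rgs7, was lower in striatum-labelled nuclei (439 ± 119 CPM, n = 7, against 1057 ± 343 CPM, n = 15, both SD). Its log2 difference was -1.27 (edgeR adjusted p = 0.000426). The obligate beta subunit Gnb5 had 97.6 and 94.7 CPM (log2 difference 0.04, edgeR adjusted p = 0.880), and the median over the 4 was -0.10.

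The G alpha subunits are the proteins that RGS proteins act on. For the 5 genes of the Gi, Go and Gz class edgeR called 0, with 1 at an unadjusted p under 0.05 and 0 by DESeq2. The most abundant, Gnao1, had 1516 ± 184 CPM (SD, n = 7) in striatum-labelled and 1540 ± 353 CPM (SD, n = 15) in cortex-labelled nuclei, and the median over the 5 was 0.29. Of the 2 measured Gq class genes, Gnaq was lower (245 against 337 CPM, log2 difference -0.46, edgeR adjusted p = 0.0107), and the median was -0.19. Of 4 other alpha subunits, Gnal, which couples to adenylyl cyclase, was lower (349.9 against 655 CPM, -0.91, edgeR adjusted p = 0.000835), with a median of -0.34. Of 10 beta and gamma subunits, Gnb2 was higher (37.3 against 21.1 CPM, 0.82, edgeR adjusted p = 0.0208) and Gng12 lower (9.10 against 18.5 CPM, -1.03, adjusted p = 0.0483), with a median of 0.30.

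Among the effectors, 2 of the 4 GIRK potassium channel subunits, which beta-gamma dimers open and RGS proteins help to close, were lower in striatum-labelled nuclei. Kcnj3 had 134 ± 29.4 CPM (SD, n = 7) against 369 ± 105 CPM (SD, n = 15), a log2 difference of -1.46 (edgeR adjusted p = 4.38e-05), and Kcnj6 41.6 against 81.5 CPM (-0.97, adjusted p = 0.0142). The median over the 4 was -0.56. Of 3 phospholipase C beta genes, the effectors of Gq, Plcb4 was lower (954 against 1788 CPM, -0.91, edgeR adjusted p = 0.00839), with a median of -0.36. Of 17 measured Gi and Gq coupled receptors, 2 were higher and 4 lower, with a median of -0.41. The cannabinoid receptor Cnr1 (128 ± 50.3 CPM, n = 7, against 5.30 ± 7.003 CPM, n = 15, both SD; log2 difference 4.59, edgeR adjusted p = 0.000913) and the dopamine receptor Drd2 (37.5 against 11.1 CPM, 1.76, adjusted p = 0.00591) were the higher ones. Of the lower ones, the adenosine receptor Adora1 had 81.8 against 172 CPM (log2 difference -1.07, edgeR adjusted p = 0.00658). Rgs2 is induced by neuronal activity, so immediate early genes were also read. Of 8 measured, 2 were higher in striatum-labelled nuclei, Fos (43.4 against 11.8 CPM, 1.88, edgeR adjusted p = 0.000286) and Junb (3.94 against 0.910 CPM, 2.11, adjusted p = 0.0248), with a median of 0.57.

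In the comparisons of single nuclei, Plcb1, a phospholipase C beta, was called repeatedly. It was higher in LP than LGd (29.1 to 108 against 2.54 to 5.84 CPM, log2 difference 3.57, edgeR adjusted p = 4.97e-07), in PO than VB (2.69, adjusted p = 0.000989), in RE than AM (2.36, adjusted p = 0.00465), and in AD (5.94, adjusted p = 7.88e-17) and LD (5.06, adjusted p = 5.93e-14) than AV. In none of these did the libraries overlap, and the share of all genes without overlap was not computed. In AD, where Rgs16, Rgs7 and Rgs8 were low, 2 of 4 GIRK channels were also lower than in AV, Kcnj6 (-1.60, edgeR adjusted p = 0.0115) and Kcnj3 (-0.93, adjusted p = 0.033). Of 10 beta and gamma subunits, 1 was higher and 2 were lower in AD. Gng2 was lower (113 against 329 CPM, -1.54, edgeR adjusted p = 8.69e-09) and Gng13 higher (9.90 against 0.0310 CPM, 8.20, adjusted p = 0.000531). The alpha subunits called were both higher in AD. These were Gnai2, 1 of 5 of the Gi, Go and Gz class (2.36, edgeR adjusted p = 0.0238), and Gnas, 1 of 4 others (1.61, adjusted p = 0.00486). Gnai2 had 57.7 to 410 CPM in AD (mean 155, SD 171, n = 4) and 4.22 to 62.05 CPM in AV (n = 8), so its libraries overlapped. Of the 17 receptors, 3 were higher and 4 lower in AD than in AV, 7 were higher in LP than in LGd, and 5 were higher in PO than in VB, with none lower in the LP and PO comparisons, where 5.69%, 3.62% and 2.65% of all genes were called, in that order.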

How the data were processed

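The values analysed were read counts per gene that the authors deposited for 120 libraries. The submitters' processing notes list featureCounts 1.52, STAR 2.5.3a, cutadapt 1.16 and the mm10 build. Per the labels' protocols, neurons were sorted by hand from dissociated slices, ERCC spike-ins were added and cDNA was amplified without strand marks or molecular identifiers, so intervals cover counting error only.

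Groups came from the library titles. Counts were tested with edgeR 4.0.16 (quasi-likelihood F test, TMM, filterByExpr with at least 10 counts, Benjamini-Hochberg over all genes tested, threshold 0.05) in 1 fit of 24 groups, with CM represented by its AAV and AM by its DiI libraries. The class test used counts summed per nucleus. CPM used TMM-scaled library sizes. The p-values of the class test measure the spread between nuclei, except within dates, where they measure the spread between sums per nucleus and date. Those of the other tests measure the spread between libraries, some of which share mice. No 2 libraries of a group held identical counts.

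DESeq2 1.42.0, limma 3.58.1, other scalings, filters, date and animal terms and left-out libraries were tried as alternatives, and 2 of these were chosen after seeing the data (without the VA library that is not wildtype, and an animal block within shared animals). Same-numbered libraries did not all deviate together in any comparison. Equal numbers marked the same mouse in 4 of 4 pairs for RE and AM, 3 of 6 for VM and VL, 2 of 4 for AD and AV, and 1 pair each for VA with VL, VA with VM, and SPA with PF. The fits were tested on simulated data.

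The genes and lists were chosen with earlier results of these data known. All RGS genes are named. Likeness named the 3 genes of highest r, and each pathway list the 2 largest called changes in each direction; some genes these rules name are not reported here. Lists included markers of projection neurons, oligodendrocytes, astrocytes, microglia, endothelium, pericytes, inhibitory neurons and habenula. Promoters came from RefSeq (GRCm38.p6) and positions from GENCODE M21.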

Additional observations from a re-analysis of the deposited data

Results flagged for a closer look

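Over 134 combinations of an RGS gene and a group of 4 to 10 libraries, with a mean of at least 10 CPM, 14 had a library far from the rest by Dixon's test, where chance gives about 1 in 20. For Rgs16 these were CL replicate 2 at 312 CPM (others 166 to 180), PF replicate 2 at 283 CPM (others 233 to 238) and VL replicate 1 at 446 CPM (others 218 to 299). For Rgs8 they were VB replicate 2 at 1762 CPM (others 240 to 348), the highest Rgs8 value of all libraries, and SPA replicate 3 at 153 CPM (others 92.6 to 99.3). Rgs4 was high in AM replicate 2 at 315 CPM (others 235 to 239) and low in SPA replicate 2 at 70.0 CPM (others 138 to 151). Rgs6 was high in LP replicate 3 at 45.6 CPM (others 12.03 to 27.5) and MD replicate 3 at 63.5 CPM (others 0 to 20.4). Rgs7 was low in AM replicate 1 at 276 CPM (others all near 351) and high in IMD replicate 3 at 331 CPM (others 254 to 267) and RE replicate 3 at 560.0 CPM (others 279 to 358). Rgs17 was high in PCN replicate 3 at 750.0 CPM (others 465 to 509), and Rgs2 in VB replicate 4 at 106 CPM (others 55.3 to 62.7).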

How the results depend on the processing

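Of 773 values of 27 results of single RGS genes under alternatives, 738 kept their call. The other 35, spread over 12 results, kept the direction but lost the call, and 0 reversed. F values, which have no direction, made up 496 of the 738. All 35 losses were among the log2 differences, of which 242 kept direction and call. The number of RGS genes called moved by over 1.5 times in the following cases. Smaller moves were from 2 to 3 for LP against LGd in its groups alone, and from 4 to 3 for LD against AV in its groups alone and with DESeq2's size factors. With female libraries alone 2 were called between the classes. A date term left 1 for PO against VB, 1 for VA against VL and 1 for LD against AV, and gave 1 for VM against VL and 2 for RE against AM. It could not be estimated for RE against IAD, SPA against PF, PVT against the intralaminar nuclei, CM by tracer and the F test. Fits of the compared groups alone called 1 for PO against VB, 1 for VM against VL, 0 for VA against VL, 2 for RE against AM, 2 for RE against IAD, 3 for SPA against PF and 1 for PVT. DESeq2 called 2 for VM against VL, 1 for RE against IAD and 1 for PVT, and DESeq2's size factors in edgeR called 1 for RE against IAD. An animal block within shared mice called 2 for LD against AV, 2 for RE against AM and 3 for RE against IAD. Without the VA library that was not wildtype 1 was called for VA against VL. The causes were not tested.

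Single libraries were left out where a group had 2 to 5 of them (55 libraries, so not those of LP, PO, AV, RE, VA, VL, VM, MD or VPMpc), and single nuclei for the classes. This gave counts of 8 to 8 in the F test, 4 to 5 for the classes, 0 to 2 for LP against LGd, 1 to 1 for PO against VB and for RE against AM, 2 to 3 for AD and for LD against AV, 0 to 1 for SPA against PF, and 0 to 0 for RE against IAD, PF and PVT against the intralaminar nuclei and CM by tracer. Over all genes, calls then fell at the lowest from 360 to 156 for PVT (without PVT replicate 2), from 51 to 23 for SPA against PF (without PF replicate 3), from 219 to 128 for RE against IAD (without IAD replicate 2), from 304 to 187 for RE against AM (without AM replicate 3) and from 10 to 6 for PF.

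With the replicate number as a block, 1 RGS gene was called for PO against VB (Rgs7 was lost, adjusted p = 0.0513 by edgeR) and 1 for RE against IAD (Rgs16, -1.11, adjusted p = 0.0304), and no other count of RGS genes moved by over 1.5 times. For RE against AM, where numbers mark shared mice, Rgs4 had a log2 difference of 1.27 (edgeR adjusted p = 0.00362) with the block. Over all genes the block moved the calls of VA against VM from 21 to 12.

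Calls over all genes moved by over 1.5 times under several alternatives. DESeq2 called 1143 against 599 by edgeR for LP against LGd, 1215 against 438 for PO against VB, 679 against 280 for VM against VL, 819 against 365 for VA against VL and 319 against 21 for VA against VM. It called 1853 against 940 for AD against AV, 1743 against 909 for LD against AV, 542 against 304 for RE against AM and 550 against 219 for RE against IAD. It called 251 against 51 for SPA against PF, 274 against 10 for PF, 1149 against 360 for PVT and 473 against 1 for CM by tracer. The classes had 2837 calls, 373 in females alone and 874 within dates. The date term left 222 for PO against VB, 116 for LD against AV and 6 for VA against VM. Groups alone gave 202 for VA against VL, 0 for VA against VM, 475 for AD against AV, 297 for LD against AV, 614 for RE against AM, 556 for RE against IAD, 1084 for SPA against PF, 5 for PF, 1031 for PVT and 12 for CM. The animal block gave 362 for AD against AV, 140 for LD against AV and 580 for RE against IAD. A level of 0 is bounded by depth, as for Rgs10 in the AM library labelled with AAV (up to 0.267 CPM).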
